A study of Homo sapiens with 6 samples.

Results

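The collagen genes of the human array were examined in HES3 cells, a line of human embryonic stem cells, after 3 days of Activin A + BMP4 or of Activin A. They were chosen by name, as every probe whose gene symbol on the platform reads COL, a number, A and a number. The rule found 59 probes for 39 genes, of 16922 genes with a probe. By class, 11 genes encode fibrillar collagens, 6 encode basement membrane collagens and 22 encode other collagens. Of the 39 genes, 27 passed a filter on dim probes, which asked for a detection p under 0.01 on at least 3 of 6 arrays, and these 27 were tested. COL8A2 and COL9A3 passed it through 1 treatment alone.

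The study had 2 groups of 3 bead arrays, each measuring total RNA labelled with biotin. The treated group received 50 ng/ml of Activin A, which acts on the receptors of Nodal, together with 50 ng/ml of BMP4, a bone morphogenetic protein. The other received 50 ng/ml of Activin A. Since the labels' treatment text mentions Activin A and BMP4 throughout, the groups were read from titles and source names. Replicates are biological per the design text. All cells came from 1 cell line. They had been grown with FGF2 on irradiated human feeder cells, passed through a 70 µm strainer, which typically removed 90% of feeders per the labels, and kept on fibronectin for 2 days before treatment. Feeders that were left are part of the measured RNA. In such bulk samples, fewer cells of a type and less RNA per cell cannot be told apart.

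Collagens are trimers of chains that wind into a triple helix, which needs glycine at every turn and hydroxylated prolines for stability. Fibrillar collagens form the rope-like fibrils of connective tissue, and fibroblasts are their best known source. Type IV collagen forms the sheet-like network of basement membranes, which lies under epithelia and is among the earliest matrices of the embryo. Other collagens decorate fibrils, anchor membranes, form beaded filaments or span the cell membrane.

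Between 9348 and 10460 probes were detected per array. Correlations across tested probes were 0.985 to 0.990 within treatments and 0.926 to 0.945 between them. The Activin A arrays shared 1 chip and the Activin A + BMP4 arrays lay on others, so chip and treatment cannot be told apart. Markers fixed for the labelled cell type, embryonic stem cells, were above background on all 6 arrays for each of the 5 genes tested, and 4 of the 5 were lower with BMP4 (SOX2 9.66-fold, NANOG 2.11-fold and POU5F1 1.93-fold among them), while LIN28A was 1.45-fold higher. Of 6 tested endoderm markers, 5 were higher and 0 lower (median log2 difference 1.66). This count and median include GATA4, which passed the filter through the Activin A + BMP4 arrays alone. Of all tested genes, 17.6% were called higher and 18.1% lower with BMP4. SOX17 was 7.23-fold, EOMES 3.52-fold and GATA4, not well above background with Activin A, at least 2.57-fold higher (1.79-fold with normexp), and FOXA2 differed by 0.13 ± 0.11 SE (limma adjusted p = 0.385). Of 24 fibroblast markers on the array, none of them a collagen, 19 were tested, and 16 were lower and 2 higher with BMP4. Their median log2 difference was -1.53, and their summed normalized level was 22291 to 23870 with Activin A + BMP4 and 42749 to 50944 with Activin A. The sum weighs bright probes most and does not measure cell number. Its brightest member with Activin A, DCN, had mean log2 values of 14.03 with Activin A and 11.97 with Activin A + BMP4. FBN1, POSTN, DPT and MEOX2 were not above background on any array. Each result below was measured on arrays that differed in these markers, and their part in it was not tested unless a value is given.

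Collagen genes moved in both directions. Of the 27 tested, 9 were higher and 13 lower with Activin A + BMP4 than with Activin A (limma, adjusted p under 0.05 over all tested probes), and 5 did not pass. These 22 calls make 81.5% of the tested collagens, while 35.8% of all 8186 tested genes were called, 17.6% as higher and 18.1% as lower. For 23 of the 27, no array of 1 treatment reached the range of the other, against 50.2% of all genes. Measured differences of at least 2-fold were found for 6 higher and 8 lower collagens, and 3.99% and 5.39% of all genes met these rules. These counts include COL9A3 and COL8A2, which passed the filter through the treatment where they were brighter and whose folds are only bounded. Among the 25 tested collagens above background in both treatments, 8 were higher and 12 lower, and 5 and 7 of them by at least 2-fold. Of the 7905 genes above background in both, 33.6% were called, and 16.7% were higher and 16.9% lower, and 3.12% and 4.28% by at least 2-fold. The median log2 difference was -0.28 over the tested collagens and 0.002 over all tested genes. The classes differed in their counts. Of 8 fibrillar collagens, 2 were higher and 5 lower (median -0.79). Of 4 basement membrane collagens, 3 were higher and 0 lower (median 0.61). Of 15 other collagens, 4 were higher and 8 lower (median -0.56), COL9A3 and COL8A2 among them. With detection required on all 6 arrays, which leaves out both and other dim genes, 3 other collagens were higher and 6 lower. The members were not compared with other genes by a test.

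**Figure D1:**
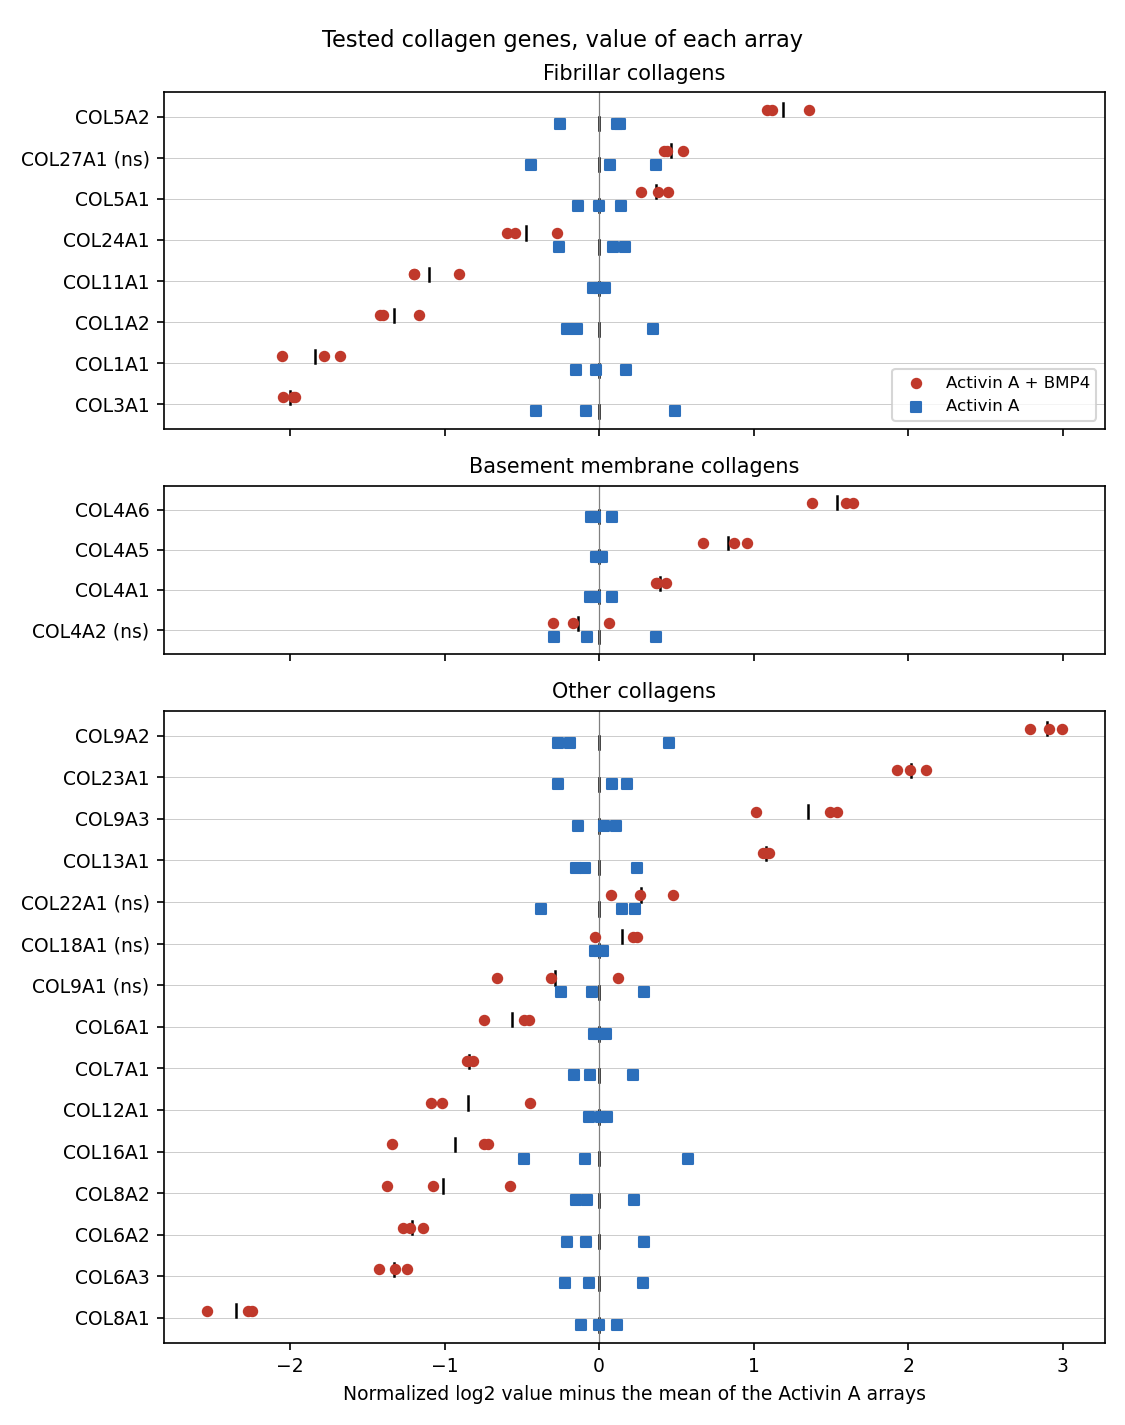
Normalized log2 value of each array (points) minus the mean of the Activin A arrays, for the 27 tested collagen genes in 3 classes. Red circles are Activin A + BMP4 arrays, blue squares Activin A arrays, short black lines the treatment means, and "ns" marks genes past no threshold. COL9A2 lies farthest to the right and COL8A1 farthest to the left.

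The fibrillar class fell at its major chains. COL1A1 and COL1A2 encode the chains of type I collagen, the main fibril of skin, bone and tendon. COL1A1 had normalized log2 values of 12.23, 12.34 and 11.96 with Activin A + BMP4, against 13.86, 14.18 and 13.99 with Activin A. COL1A2 had 11.87, 11.89 and 12.12 with Activin A + BMP4, against 13.15, 13.64 and 13.08 with Activin A. The arrays did not overlap for either gene. COL1A1 was 3.57-fold lower (log2 difference -1.84 ± 0.14 SE, limma adjusted p = 2.94e-05) and COL1A2 2.51-fold lower (log2 difference -1.33 ± 0.16 SE, limma adjusted p = 0.000393). Both chains fell on arrays where 16 of 19 fibroblast markers were also lower.

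COL3A1, which encodes type III collagen of skin, vessels and loose connective tissue, fell most among the fibrillar genes. Its values were 8.57, 8.64 and 8.66 with Activin A + BMP4, and 11.11, 10.54 and 10.22 with Activin A. The treated arrays lay within a narrow range, far below the scattered Activin A arrays. COL3A1 was 3.996-fold lower (log2 difference -2.00 ± 0.20 SE, limma adjusted p = 0.000148). COL11A1, whose product helps to start fibrils in cartilage, fell on both of its tested probes. The brighter probe had 8.15, 8.14 and 8.44 with Activin A + BMP4, against 9.34, 9.38 and 9.30 with Activin A, and its log2 difference was -1.10 ± 0.11 SE (limma adjusted p = 0.000165). The other tested probe differed by -0.96, and the remaining pair was not above background on any array.

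Type V collagen went the other way. It co-assembles with type I and limits the width of its fibrils, and COL5A1 and COL5A2 encode its chains. COL5A2 had values of 13.67, 13.91 and 13.64 with Activin A + BMP4, and 12.69, 12.30 and 12.67 with Activin A. It was 2.28-fold higher (log2 difference 1.19 ± 0.14 SE, limma adjusted p = 0.00032), with no overlap between treatments. COL5A1 had 11.57, 11.68 and 11.74 with Activin A + BMP4, against 11.16, 11.44 and 11.30 with Activin A. Its rise was small, 1.29-fold (log2 difference 0.37 ± 0.11 SE, limma adjusted p = 0.0346). It did not pass with median scaling (0.25, limma adjusted p = 0.165) or with the authors' processed values (0.25, limma adjusted p = 0.172), nor without Activin A + BMP4 replicate 2 or 3 or Activin A replicate 1 or 3 (limma adjusted p = 0.0818 to 0.114). COL5A2 and COL3A1 are neighbours on chromosome 2 in RefSeq (GRCh38.p14), with 0 annotated genes between them, and passed the threshold in opposite directions.

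The minor fibrillar genes were dim. COL24A1, a fibrillar collagen of developing bone, was above background on 2 of 3 Activin A + BMP4 arrays and on all Activin A arrays. It was 1.39-fold lower (limma adjusted p = 0.0361), a call lost without Activin A + BMP4 replicate 1 or 2 or Activin A replicate 2 or 3 (limma adjusted p = 0.100 to 0.112). COL27A1, a fibrillar collagen of cartilage, differed by 0.47 ± 0.19 SE (limma adjusted p = 0.089), and by 0.65 without Activin A replicate 3 (limma adjusted p = 0.0239). It was above background on 2 arrays with Activin A + BMP4 and on 1 with Activin A. COL2A1, the main collagen of cartilage, was above background on 2 Activin A arrays and on none with Activin A + BMP4. The lower bound of its measured difference was 1.08-fold (1.04-fold with normexp), from a mean that includes an Activin A array not above background. It was not tested with the main filter. It did not pass with no filter (limma adjusted p = 0.0723), and passed with a detection p under 0.05 as the filter (limma adjusted p = 0.0478). COL5A3 and COL11A2 were not above background on any array.

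**Figure D2:**
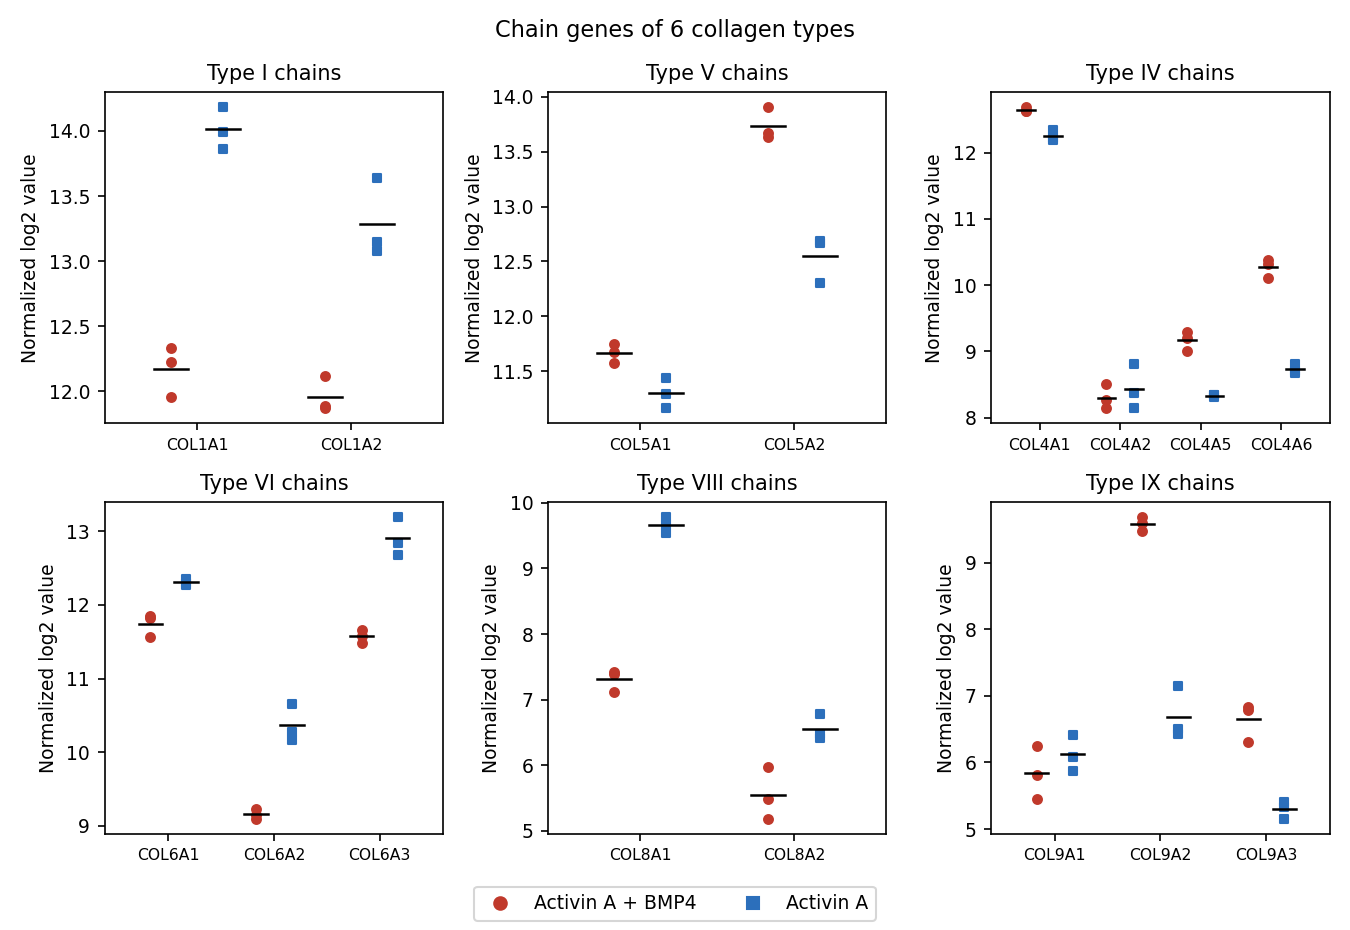
Normalized log2 values of each array (points; lines are means of 3 arrays) for the tested chain genes of 6 collagen types, with Activin A + BMP4 in red to the left of Activin A in blue. Vertical axes differ between panels and levels are not comparable between genes. The chains of types I, VI and VIII were all lower with BMP4, COL5A2, COL4A5, COL4A6, COL9A2 and COL9A3 were higher, and COL4A2 and COL9A1 overlapped.

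The basement membrane class held the collagens that were mostly higher. The 6 genes of type IV collagen lie in head-to-head pairs, each pair sharing the DNA between its starts. COL4A1 and COL4A2 encode the chains found in nearly all basement membranes, and COL4A5 and COL4A6 encode chains that join in those of smooth muscle and some epithelia. COL4A3 and COL4A4, known from kidney and lung, were not above background on any array. The DNA between the paired starts is shown because the partners of 1 pair moved together and those of another were not both called. RefSeq (GRCh38.p14) places 126 bases between COL4A1 and COL4A2, at chr13:110307158-110307283, and 379 between COL4A5 and COL4A6, of which the 250 before COL4A5, at chrX:108439588-108439837, are printed. Both are on the plus strand, 5′ to 3′, and capitals mark matches on either strand to the CCAAT box, the GC box GGGCGG, the TATA box TATAAA, the SMAD motif GGCGCC and the AP-1 motif TGANTCA. The GC box and the SMAD motif can share bases.
COL4A1-COL4A2: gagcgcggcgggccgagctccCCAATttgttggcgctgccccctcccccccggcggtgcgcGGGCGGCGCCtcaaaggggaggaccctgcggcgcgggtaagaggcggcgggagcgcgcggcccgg
COL4A5: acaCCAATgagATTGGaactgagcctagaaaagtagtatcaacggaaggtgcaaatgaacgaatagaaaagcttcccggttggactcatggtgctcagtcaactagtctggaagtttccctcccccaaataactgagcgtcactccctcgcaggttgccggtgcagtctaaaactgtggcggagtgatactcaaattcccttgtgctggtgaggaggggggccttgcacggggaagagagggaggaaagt

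The COL4A1 and COL4A2 stretch was 80.2% G and C and held 1 CCAAT, 1 GGGCGG and 1 GGCGCC, the last pair overlapping. In windows of 126 bases before all 35116 starts in the table, 21.1% held CCAAT, 34.6% GGGCGG and 10.4% GGCGCC. The window before COL4A5 was 51.2% G and C and held 2 CCAAT matches and none of the other motifs. It leaves out the part of the stretch nearest COL4A6. The 2 windows before COL4A6 starts held up to 3 CCAAT and up to 1 GGGCGG, and none of the other motifs. CCAAT was found in 32% of all windows of 250 bases. A match is only a run of letters and says nothing of binding.

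COL4A6 rose most in this class. Its values were 10.11, 10.37 and 10.32 with Activin A + BMP4, and 8.68, 8.81 and 8.70 with Activin A. It was 2.91-fold higher (log2 difference 1.54 ± 0.11 SE, limma adjusted p = 2.51e-05), and its other 2 probes were not above background on any array. COL4A5 had 9.005, 9.29 and 9.21 with Activin A + BMP4, against 8.35, 8.33 and 8.31 with Activin A. It was 1.78-fold higher (log2 difference 0.84 ± 0.11 SE, limma adjusted p = 0.000555). Both partners of this pair were therefore higher on every Activin A + BMP4 array than on any Activin A array, and stayed past the threshold under all 17 alternatives.

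COL4A1 and COL4A2 did not both pass. COL4A1 had 12.69, 12.63 and 12.62 with Activin A + BMP4, and 12.23, 12.34 and 12.20 with Activin A. It was 1.31-fold higher (log2 difference 0.39 ± 0.10 SE, limma adjusted p = 0.0138), but 0.26 with median scaling (limma adjusted p = 0.189) and 0.25 with the authors' processed values (limma adjusted p = 0.172) on the log2 scale. COL4A2 had 8.14, 8.27 and 8.50 with Activin A + BMP4, against 8.36, 8.80 and 8.15 with Activin A. The treatments overlapped, and its log2 difference of -0.14 ± 0.18 SE did not pass (limma adjusted p = 0.589). Without Activin A replicate 2 it was 0.05. The difference between these partners was not tested.

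Among the other collagens the largest rises were in type IX and in membrane-spanning collagens. Type IX collagen sits on the surface of cartilage fibrils, and COL9A1, COL9A2 and COL9A3 encode its chains. COL9A2 had values of 9.48, 9.68 and 9.60 with Activin A + BMP4, and 6.50, 7.14 and 6.42 with Activin A. It was 7.46-fold higher (log2 difference 2.90 ± 0.19 SE, limma adjusted p = 1.65e-05), the largest difference of any tested collagen. Across the 17 alternatives its log2 difference ran from 2.30 to 3.13. COL9A3 had 6.31, 6.79 and 6.84 with Activin A + BMP4, against 5.32, 5.16 and 5.41 with Activin A, where it was not well above background on any array. It was at least 1.54-fold higher, or 1.28-fold with normexp (limma adjusted p = 0.000302, for the measured difference and not the bound). It passed the filter through the Activin A + BMP4 arrays alone. Its measured log2 difference of 1.35 was 0.71 with normexp, 2.03 without background correction and 2.03 with the authors' values. The bound sets the mean of the bright arrays against the lowest signal that counts as detected. COL9A1 was dim in both treatments, above background on 1 array with Activin A + BMP4 and on 2 with Activin A, and differed by -0.28 ± 0.21 SE (limma adjusted p = 0.335).

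COL23A1 and COL13A1 encode collagens that span the cell membrane. COL23A1 had 9.90, 10.002 and 9.81 with Activin A + BMP4, against 8.07, 7.62 and 7.97 with Activin A. It was 4.05-fold higher (log2 difference 2.02 ± 0.14 SE, limma adjusted p = 2.07e-05). COL13A1, found at cell junctions of muscle and nerve, had 10.25, 10.23 and 10.26 with Activin A + BMP4, and 9.41, 9.07 and 9.02 with Activin A. It was 2.11-fold higher (log2 difference 1.08 ± 0.12 SE, limma adjusted p = 0.000295). COL25A1, another membrane-spanning collagen, was not above background on any array.

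Falls in the same class took in every tested gene of types VI and VIII. Type VI collagen forms beaded filaments around cells and is abundant in fibroblasts. COL6A3 had values of 11.58, 11.48 and 11.66 with Activin A + BMP4, and 12.68, 13.19 and 12.84 with Activin A. COL6A2 had 9.14, 9.23 and 9.10 with Activin A + BMP4, against 10.28, 10.66 and 10.16 with Activin A. COL6A1 had 11.56, 11.82 and 11.85 with Activin A + BMP4, against 12.30, 12.27 and 12.35 with Activin A. No array of 1 treatment reached into the range of the other for any of these chains. COL6A3 was 2.51-fold lower (log2 difference -1.33 ± 0.14 SE, limma adjusted p = 0.000201), COL6A2 2.32-fold lower (limma adjusted p = 0.000301) and COL6A1 1.48-fold lower (limma adjusted p = 0.00526). Second probes fell too, with log2 differences of -1.499 for COL6A3 and -1.14 for COL6A2. COL6A5 was not above background on any array.

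COL8A1 and COL8A2 encode type VIII collagen, a short-chain collagen of vessel walls and of the membrane behind the cornea. COL8A1 had 7.42, 7.39 and 7.12 with Activin A + BMP4, against 9.54, 9.78 and 9.66 with Activin A. It was 5.10-fold lower (log2 difference -2.35 ± 0.12 SE, limma adjusted p = 7.27e-06), the largest fall of any tested collagen. Across the 17 alternatives its log2 difference ran from -2.50 to -1.97. A dimmer COL8A1 probe was above background on 2 Activin A arrays alone. COL8A2 had 5.98, 5.19 and 5.48 with Activin A + BMP4, where it was not well above background, and 6.48, 6.78 and 6.41 with Activin A. It was at least 1.42-fold lower, or 1.21-fold with normexp (limma adjusted p = 0.00521, for the measured difference and not the bound). COL8A2 passed the filter through the Activin A arrays alone.

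COL7A1 encodes type VII collagen, whose anchoring fibrils tie the epidermal basement membrane to the dermis. Its values were 11.37, 11.36 and 11.40 with Activin A + BMP4, and 12.05, 12.44 and 12.15 with Activin A. It was 1.79-fold lower (log2 difference -0.84 ± 0.12 SE, limma adjusted p = 0.000987). COL12A1 and COL16A1 encode collagens with interrupted helices that associate with fibrils. COL12A1 was 1.80-fold lower by 1 of its 2 probes (limma adjusted p = 0.00512), with a log2 difference of -0.85, or -0.53 with normexp, and the other was not above background. COL16A1 was 1.91-fold lower (limma adjusted p = 0.0279). Its values scattered, from 6.79 to 7.41 with Activin A + BMP4 and from 7.64 to 8.70 with Activin A, and the call was lost without Activin A + BMP4 replicate 1 or Activin A replicate 1 or 2 (limma adjusted p = 0.0591 to 0.0857).

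COL18A1, whose protein yields endostatin and lies in basement membranes, differed by 0.15 ± 0.11 SE (limma adjusted p = 0.335). COL22A1, a collagen of tissue junctions, differed by 0.27 ± 0.18 SE (limma adjusted p = 0.277). Arrays of the treatments overlapped for both. COL10A1, of hypertrophic cartilage, and COL15A1, of the zone below basement membranes, were above background on 2 Activin A arrays and on none with Activin A + BMP4. The lower bound of the measured difference was 1.14-fold for COL10A1 and 1.12-fold for COL15A1 (1.08-fold and 1.06-fold with normexp). Each mean includes an Activin A array not above background, and neither gene was tested with the main filter. COL19A1, COL20A1 and COL21A1 were not above background on any array.

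The stretches before the starts of COL9A2 and COL23A1, the largest rises, and of COL6A2 and COL6A3, which fell together, are printed as examples. COL8A1, the largest fall, had no sequence to print. The printed stretches are RefSeq sequences (GRCh38.p14) of the 250 bases before the start. They are on the strand of the gene, with the same motifs in capitals. They lie at chr1:40317287-40317536 (minus) for COL9A2, chr5:178590394-178590643 (minus) for COL23A1, chr21:46097862-46098111 (plus) for COL6A2 and chr2:237414165-237414414 (minus) for COL6A3.
COL9A2: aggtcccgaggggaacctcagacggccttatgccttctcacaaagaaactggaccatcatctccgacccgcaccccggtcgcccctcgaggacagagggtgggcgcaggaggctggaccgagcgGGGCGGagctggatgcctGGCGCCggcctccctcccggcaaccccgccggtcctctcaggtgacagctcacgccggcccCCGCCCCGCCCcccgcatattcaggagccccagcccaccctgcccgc
COL23A1: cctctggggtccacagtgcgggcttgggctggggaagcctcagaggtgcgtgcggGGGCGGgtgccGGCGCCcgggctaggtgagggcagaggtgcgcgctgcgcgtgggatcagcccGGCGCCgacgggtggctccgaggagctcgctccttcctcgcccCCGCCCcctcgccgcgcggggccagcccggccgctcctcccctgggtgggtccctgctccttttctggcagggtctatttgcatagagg
COL6A2: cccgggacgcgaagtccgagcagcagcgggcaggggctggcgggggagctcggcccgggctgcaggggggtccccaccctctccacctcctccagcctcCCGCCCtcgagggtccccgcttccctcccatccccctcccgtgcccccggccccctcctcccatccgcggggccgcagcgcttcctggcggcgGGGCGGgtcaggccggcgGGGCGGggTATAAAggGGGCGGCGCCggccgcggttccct
COL6A3: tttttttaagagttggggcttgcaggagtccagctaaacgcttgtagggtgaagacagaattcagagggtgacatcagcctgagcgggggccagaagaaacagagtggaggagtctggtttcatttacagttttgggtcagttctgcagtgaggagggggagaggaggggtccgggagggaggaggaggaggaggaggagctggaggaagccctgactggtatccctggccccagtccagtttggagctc

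The GC box GGGCGG, known to bind SP1, matched 3 times before COL9A2, 2 times before COL23A1 and 4 times before COL6A2. GGCGCC, which SMAD proteins of BMP signalling can bind, matched 1 time before COL9A2, 2 times before COL23A1 and 1 time before COL6A2, there overlapping a GC box. The TATA box was found before COL6A2 alone among these 4 genes. The window before COL6A3 held none of the 5 motifs. Of all 250-base windows, 42.6% held GGGCGG, 16.4% GGCGCC, 10.7% TATAAA and 6.6% TGANTCA. Among the 28 collagen genes with a window, 20 held GGGCGG and 12 held GGCGCC in at least 1 window. Some genes had several windows, while the shares above count each window once, so the figures are not alike. GGCGCC was found for 4 of the 7 higher and 2 of the 8 lower collagens with a window, and GGGCGG for 5 of 7 and 7 of 8. The called collagens without a window were COL5A2 and COL9A3, higher, and COL1A1, COL1A2, COL3A1, COL6A1 and COL8A1, lower. Whether a motif goes with the direction of change was not tested.

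Genes that process collagen moved in both directions as well. Newly made chains are hydroxylated, folded with chaperones in the endoplasmic reticulum and trimmed outside the cell. Of 21 tested maturation genes, 6 rose, 8 fell and 7 did not pass (median log2 difference -0.26), against 17.6% and 18.1% of all genes. The count of those that rose was 4 to 5 with any 1 array left out. PCOLCE2, an enhancer of propeptide removal, was 3.46-fold higher, and P3H2, a prolyl 3-hydroxylase that acts on type IV collagen, 2.65-fold higher. P4HA1 and P4HA2 encode alternative catalytic subunits of prolyl 4-hydroxylase and passed in opposite directions. P4HA1 was 1.85-fold higher (log2 difference 0.89 ± 0.19 SE, limma adjusted p = 0.00689) and P4HA2 3.46-fold lower (log2 difference -1.79 ± 0.12 SE, limma adjusted p = 1.81e-05). BMP1, a protease that removes propeptides, was 1.72-fold lower and TRAM2, a translocon protein linked to type I collagen synthesis, 1.69-fold lower. PXDN, which cross-links type IV collagen, differed by 0.11 ± 0.13 SE (limma adjusted p = 0.516).

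Of 6 tested collagen receptors, 3 were lower, 1 was higher and 2 did not pass (median -0.43), while 35.8% of all genes were called. DDR2, a receptor kinase for fibrillar collagens, was 3.82-fold lower and ITGA2, an integrin chain for collagen, 3.07-fold lower. Its partner chain ITGB1 was 1.59-fold lower, and DDR1, the related kinase of epithelia, differed by -0.20 ± 0.10 SE (limma adjusted p = 0.148). MRC2, a receptor that takes up collagen fragments, was 1.51-fold higher, above background on 3 arrays with Activin A + BMP4 and on 2 with Activin A.

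Of 11 genes of collagen breakdown on the array, 7 were tested, and all 7 were lower (median -1.13), as were 18.1% of all genes. MMP8, MMP13 and MMP16 were not above background on any array, and MMP14 did not pass the filter. FAP, a fibroblast protease that is also on the fibroblast marker list, was 3.79-fold lower, the collagenase MMP1 2.56-fold and the cathepsin CTSB 2.27-fold lower. Of 10 tested partners of type IV collagen in basement membranes, 1 was higher, 3 lower and 6 did not pass (median 0.05), a share near the 35.8% called among all genes. LAMA1, a laminin chain of the early embryo, was 1.77-fold higher, while LAMC1, a chain shared by most laminins, was 2.10-fold lower. With Activin A + BMP4, LAMB3 was not well above background on any array, and its fall was at least 1.26-fold (1.13-fold with normexp). Without it, 2 partners were lower. NID1, which links laminin to type IV collagen, was 1.503-fold lower, and HSPG2, which encodes perlecan, differed by -0.34 ± 0.13 SE (limma adjusted p = 0.0687).

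**Figure D3:**
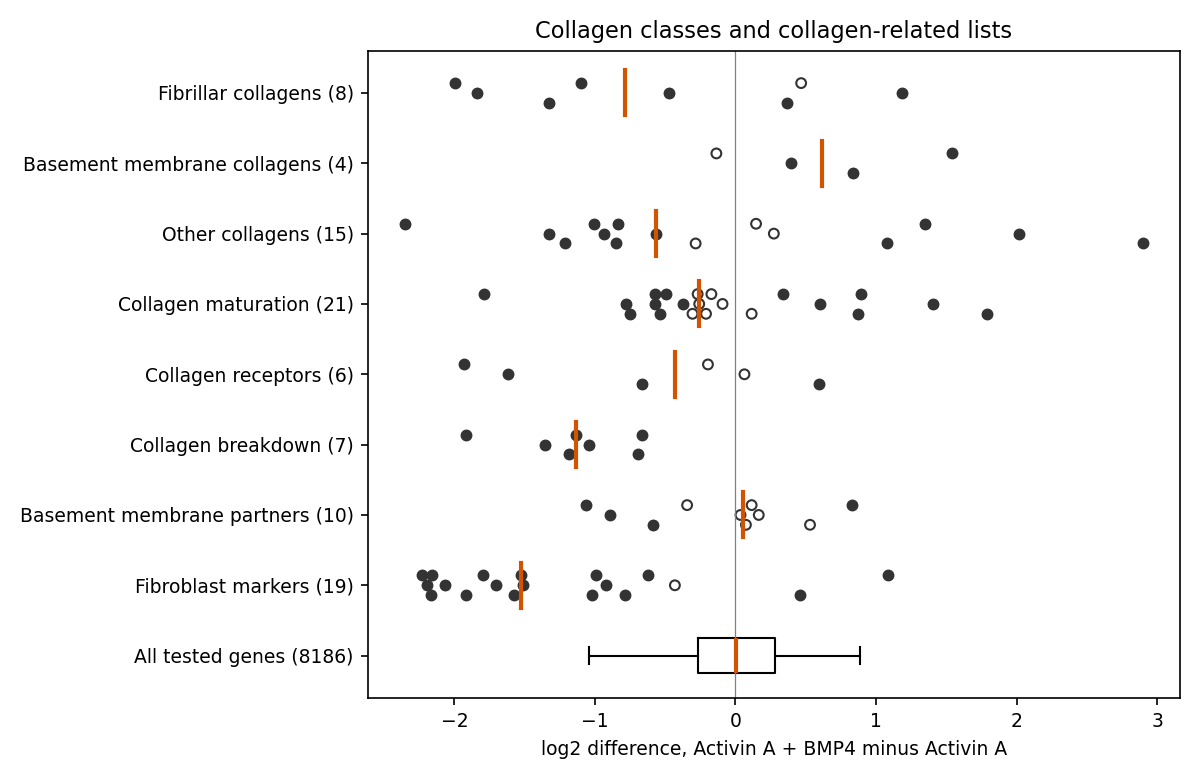
log2 difference (Activin A + BMP4 minus Activin A) of each tested gene by list, with the number of genes in brackets. Filled points passed the limma threshold, open points did not, orange lines are medians, and the box shows quartiles of all 8186 tested genes with whiskers at the 5th and 95th percentiles. The basement membrane collagens lie mostly right of 0, with a median of 0.61, and the fibroblast markers mostly left, with a median of -1.53.

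Fibroblast markers fell on the same arrays. THBS2, which encodes a thrombospondin of connective tissue, was 4.69-fold lower, LOX, which cross-links collagen, 4.59-fold and the surface glycoprotein gene THY1 4.49-fold lower. CCL2 and FBLN1 were the markers that rose, 2.12-fold and 1.37-fold. Among the collagens the log2 differences of those that fell ran from -0.47 for COL24A1 to -2.35 for COL8A1, and of those that rose from 0.37 for COL5A1 to 2.90 for COL9A2. Markers of endothelial cells, another source of type IV collagen, were largely not detected, since 5 of 8, among them PECAM1 and CDH5, were not above background on any array. Of the 3 tested, TEK was 1.90-fold higher, ESAM 1.66-fold lower, and KDR did not pass (limma adjusted p = 0.0526). Whether these cells had a part in the type IV differences was not tested.

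**Figure D4:**
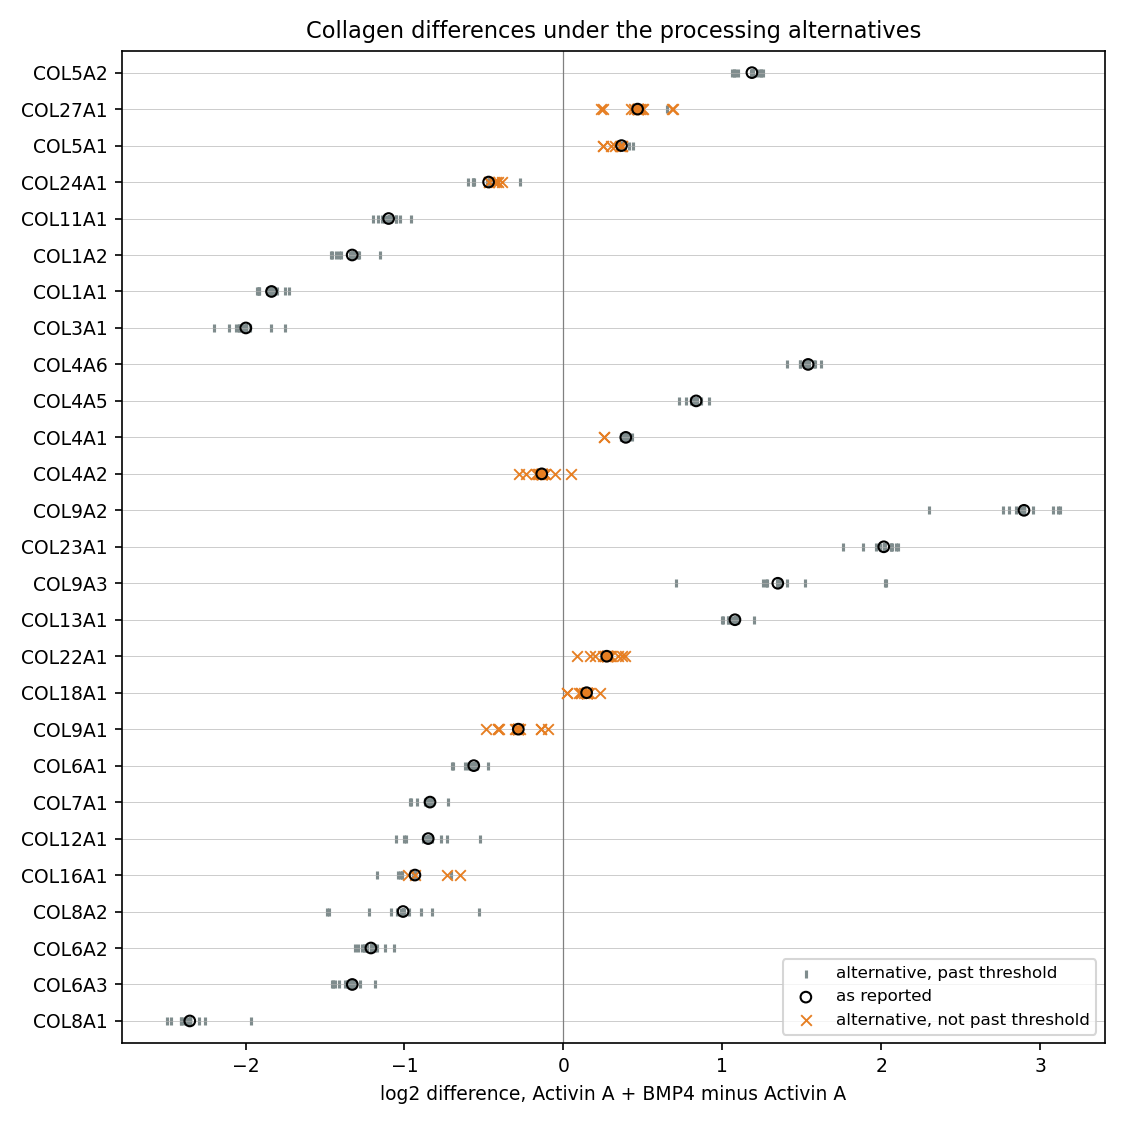
log2 difference of each tested collagen gene as reported (open circles) and under each processing alternative (grey ticks where the limma threshold was passed, orange crosses where it was not). Alternatives include other background corrections, normalizations and filters, blocks, and leaving out each array. Of 22 genes past the threshold, 18 passed it under every alternative that tested them, and COL4A1, COL5A1, COL16A1 and COL24A1 did not.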

How the data were processed

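The file of non-normalized signals, as its header calls it, holds the deposited intensity of each probe, linear and with background taken off, as 22.2% to 24.6% of values per array lay below 0. The deposited detection column, named a detection p-value in the file headers, is a score that rose with the signal (lowest Spearman correlation of any array 0.980) and was therefore taken as 1 minus the p. Processed log2 values from the authors equalled the log2 signal plus a probe and an array constant to within 1.20e-06 over 6507 bright probes. Array medians lay between -0.147 and 0.147, and the baseline of each probe stays unknown. Sources used here do not name the scanner software.

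Signals were corrected and quantile-normalized with neqc (offset 16) in limma 3.58.1 under R 4.3.3. The platform annotation gave 1 gene symbol for 21834 of 24526 probes and none for 2692, and 21813 gene IDs were found in RefSeq. Of all probes 10116 were tested, 30 of them for collagens, and the brightest tested probe stood for a gene. Treatments were compared with lmFit and eBayes, two-sided, and p-values were adjusted by Benjamini-Hochberg across the tested probes, with a threshold of 0.05. Each difference is the Activin A + BMP4 mean minus the Activin A mean. Values are mean differences from 3 arrays a treatment. Their standard errors are those moderated by eBayes, which also draws on the variance of the other tested probes. Background correction, normalization, filter, probe choice, blocks and each array left out were tried as alternatives. Precision is limited by the number of arrays.

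Every collagen on the array was named. From each other list up to 3 genes in each direction past the threshold with the largest differences were named. Of the maturation, receptor and basement membrane partner genes that did not pass, only PXDN, DDR1 and HSPG2 were named. Marker genes outside this rule were chosen after their values were seen. The members and lists were chosen with earlier results of these data known. FAP and PXDN each stand on 2 lists.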

Additional observations from a re-analysis of the deposited data

How the results depend on the processing

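The counts of 9 higher and 13 lower collagens became 7 and 13 with median scaling or the authors' processed values, 8 and 10 when detection was required on all 6 arrays, which left 21 collagens tested, and 8 and 15 with a detection p under 0.05 as the filter. That filter admitted COL2A1, COL10A1 and COL15A1 through the Activin A arrays alone. Counting only genes above background in both treatments, a choice made after seeing the data, gave 8 and 12. All 22 called collagens kept their direction in 370 of 370 comparisons with an alternative and stayed past the threshold in 350 of them. The calls lost were those of COL4A1, COL5A1, COL16A1 and COL24A1. COL16A1 and COL24A1 were also lost with no filter (limma adjusted p = 0.0585 and 0.0742), COL5A1 with no filter (limma adjusted p = 0.0714), and COL24A1 and COL5A1 with a detection p under 0.05 as the filter (limma adjusted p = 0.0503 and 0.0512). The direction of COL4A2, not a call, turned to 0.0464 without Activin A replicate 2. With normexp, COL24A1 differed by -0.27 and COL8A2 by -0.53. The causes of these changes were not tested, apart from the filters, which change how many probes are tested.

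The number of fibrillar collagens that were higher was 1 with median scaling, the authors' processed values, no filter or a detection p under 0.05, and 1 to 2 when each array was left out in turn. Higher fibroblast markers numbered 1 with median scaling and with the authors' processed values, and higher collagen receptors 0 with detection on all 6 arrays, where MRC2 was not tested. The collagen median of -0.28 was -0.14 with normexp, no filter or detection on all 6 arrays, -0.41 without background correction and with the authors' values, -0.52 with a detection p under 0.05, and -0.41 to -0.12 with 1 array left out. The fibrillar median was -0.61 with normexp, -0.47 with no filter, -1.21 with detection on all 6 arrays and -0.58 with a detection p under 0.05. The basement membrane median was 0.53 with median scaling, 0.54 with the authors' values and 0.21 with no filter. The median of other collagens was -0.69 with median scaling, -0.70 with the authors' values, -0.23 with no filter, -0.84 with a detection p under 0.05 and -0.62 to -0.49 with 1 array left out. With no filter, all 39 collagens were tested.

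The replicate numbers did not pair the arrays, since deviations of same-numbered arrays correlated by 0.03, -0.03 and -0.05 and the best match of an array bore its number in 2 of 6 cases. With replicate number as a block, 9 collagens were higher and 13 lower, and 1370 and 1359 of all genes. Chip as a random block (consensus correlation 0.0149) also gave 9 and 13. No chip held both treatments, so this fit cannot separate a shift between chips from the treatment. Dim probes, among them COL9A1, COL24A1 and COL27A1, lie near background, where a difference is least precise.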
